A study of Mus musculus with 6 samples.

Results

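The proteasome genes were examined in sorted basal cells of mouse epidermis. They were taken as every gene whose symbol on the array begins with Psma, Psmb, Psmc, Psmd, Psme or Psmg followed by a digit. This rule found 48 of the 18193 genes on the array, and 46 of them were among the 10993 genes kept after a filter on detection. Of the 46 genes, 44 encode subunits, activators or assembly factors of the proteasome. The other 2, Psmc3ip and Psme3ip1, carry the symbol of a partner protein and are not proteasome parts. Psme2, the β chain of the PA28 activator, was measured only by 1 probe set that also names Psme2b and was not counted. The study compared the ventral epidermis of pregnant mice, where the abdominal skin expands, with dorsal epidermis of pregnant mice and with ventral epidermis of virgin mice. There were 3 groups of 2 arrays each: 16 days post coitum (dpc) ventral, 16 dpc dorsal and virgin ventral, all from female C57BL/6 mice labelled as 10 weeks old. All cells were sorted as α6-integrin-positive and propidium iodide-negative, so each array holds live cells that carry a basal keratinocyte integrin, and the gate as described names no marker against immune or mammary cells. Virgin dorsal cells were not analysed here, and the labels do not say how many animals stand behind an array, so each p-value measures the spread between these arrays, which may be technical.

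The proteasome is the protease that breaks down proteins tagged with ubiquitin. Its 20S core is a barrel of α rings, which gate the entrance, around β rings, which hold the catalytic sites. The 19S regulatory particle binds ubiquitin chains and unfolds the substrate with a ring of ATPases, and PA28 and PA200 are alternative caps. In cells exposed to interferon-γ and in many immune cells, the catalytic subunits Psmb5, Psmb6 and Psmb7 are replaced during assembly by Psmb8, Psmb9 and Psmb10, giving the immunoproteasome, which favours peptides that fit MHC class I molecules. Epidermal keratinocytes carry the constitutive form and can make the immune form.

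The promoters of the catalytic subunits are shown because the immune and constitutive sets are described side by side below. A promoter here is the 250 bases before and the 50 bases after the start of a gene in RefSeq on build GRCm38.p6, and 40 of the 48 genes had an entry, with none for Psmb7. The windows were chr17:34197945-34198244 on the plus strand for Psmb8, chr17:34187281-34187580 on the minus strand for Psmb9, chr8:105938343-105938642 on the minus strand for Psmb10, chr14:54617946-54618245 on the minus strand for Psmb5 and chr11:70525107-70525406 on the plus strand for Psmb6. Capitals mark the letters TGACNNNGC, the core of the antioxidant response element that is bound by Nfe2l1 and Nfe2l2, the factors known to drive constitutive proteasome genes.
Psmb8: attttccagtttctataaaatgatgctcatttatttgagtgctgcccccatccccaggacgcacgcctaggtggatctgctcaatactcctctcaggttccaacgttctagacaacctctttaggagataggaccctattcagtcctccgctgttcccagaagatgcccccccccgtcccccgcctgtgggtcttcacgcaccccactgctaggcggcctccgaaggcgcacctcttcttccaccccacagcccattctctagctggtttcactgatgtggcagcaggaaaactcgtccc
Psmb9: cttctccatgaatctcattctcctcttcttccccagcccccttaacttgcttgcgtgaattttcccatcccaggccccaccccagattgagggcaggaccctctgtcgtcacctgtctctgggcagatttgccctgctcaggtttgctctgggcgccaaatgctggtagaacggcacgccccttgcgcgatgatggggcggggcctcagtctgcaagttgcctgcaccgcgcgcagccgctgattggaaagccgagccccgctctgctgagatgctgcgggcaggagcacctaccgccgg
Psmb10: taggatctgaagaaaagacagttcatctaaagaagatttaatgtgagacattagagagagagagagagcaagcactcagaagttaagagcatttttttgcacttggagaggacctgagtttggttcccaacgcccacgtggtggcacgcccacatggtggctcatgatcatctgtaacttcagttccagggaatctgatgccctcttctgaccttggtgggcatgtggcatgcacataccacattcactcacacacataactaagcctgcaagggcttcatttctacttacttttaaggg
Psmb5: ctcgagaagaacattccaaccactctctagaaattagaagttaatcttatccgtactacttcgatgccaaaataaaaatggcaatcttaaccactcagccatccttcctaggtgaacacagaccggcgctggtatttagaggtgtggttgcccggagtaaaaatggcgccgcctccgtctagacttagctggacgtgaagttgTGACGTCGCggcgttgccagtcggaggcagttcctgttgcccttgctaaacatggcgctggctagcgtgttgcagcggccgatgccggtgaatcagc
Psmb6: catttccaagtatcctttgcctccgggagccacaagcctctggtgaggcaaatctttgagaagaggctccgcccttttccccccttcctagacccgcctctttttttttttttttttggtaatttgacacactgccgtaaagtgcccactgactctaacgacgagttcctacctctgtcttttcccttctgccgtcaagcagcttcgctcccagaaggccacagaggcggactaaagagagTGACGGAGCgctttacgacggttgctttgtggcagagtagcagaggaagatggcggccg

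Both strands were searched. TGACNNNGC was found in 6 of the 40 promoters (15.0%), against 14.0% of 27025 genes with a promoter of the same length. It began 47 bases before the start used for the Psmb5 window and 9 bases before the start used for the Psmb6 window. That Psmb6 start lies inside the gene span given below for Psmb6, and the motif falls within the span. The other genes with the motif were Psmc6, Psmd9, Psmd12 and Psme4. A second motif, GAAANNGAA, the core of the interferon-stimulated response element that interferon regulatory factors bind, was found in 7 of the 40 promoters (17.5%), against 9.76% of the genes. Those 7 genes were Psmb3, Psmb4, Psmc2, Psmd4, Psmd9, Psme1 and Psmg4. The windows of Psmb8, Psmb9 and Psmb10 held neither motif.

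Values are the MAS5 signals deposited by the authors, in arbitrary units and scaled to the same trimmed mean on each array (500.0). Between 47.2% and 53.3% of probe sets were called present per array. Summed signals of 11 basal keratinocyte markers were 178725 and 203255 in 16 dpc ventral cells, 172060 and 245538 in 16 dpc dorsal cells and 192289 to 199216 in virgin ventral cells, and all 11 genes were detected. Both 16 dpc arrays numbered 2 had a high ratio of 3′ to 5′ actin signal, a sign of partly degraded RNA or short labelled product. The ratio was 3.90 on 16 dpc ventral array 2 and 4.47 on 16 dpc dorsal array 2, against 1.78 to 2.46 on the other 4 arrays. Column headers name a day of gestation later than the labels' 16 dpc by under 1 day, and the labels' day is used here. They give the arrays numbered 1 a shared leading number, and those numbered 2 another. Differences within arrays of the same number are therefore given beside the main values.

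The kept proteasome genes were detected on every array and varied little between arrays. All 46 genes were called present on all 6 arrays, as were 9700 of the 10993 genes kept. Psma8, an α subunit of germ cells, and Psmb11, a catalytic subunit of the thymus cortex, were called absent on all 6. The highest array was a median of 1.39 times the lowest for the 46 genes, against 1.52 times for all genes kept. This ratio was under 1.5 for 32 of the 46 genes (69.6%, against 47.8% of all genes) and over 2 for 5 (10.9%, against 22.0%). It was smallest for Psma2, an α ring subunit, at 1.14 times, and largest for Psmd7, a structural subunit of the 19S lid, at 2.79 times. Genes were not matched for signal level, and the part of signal level in these ratios was not tested.

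**Figure D1:**
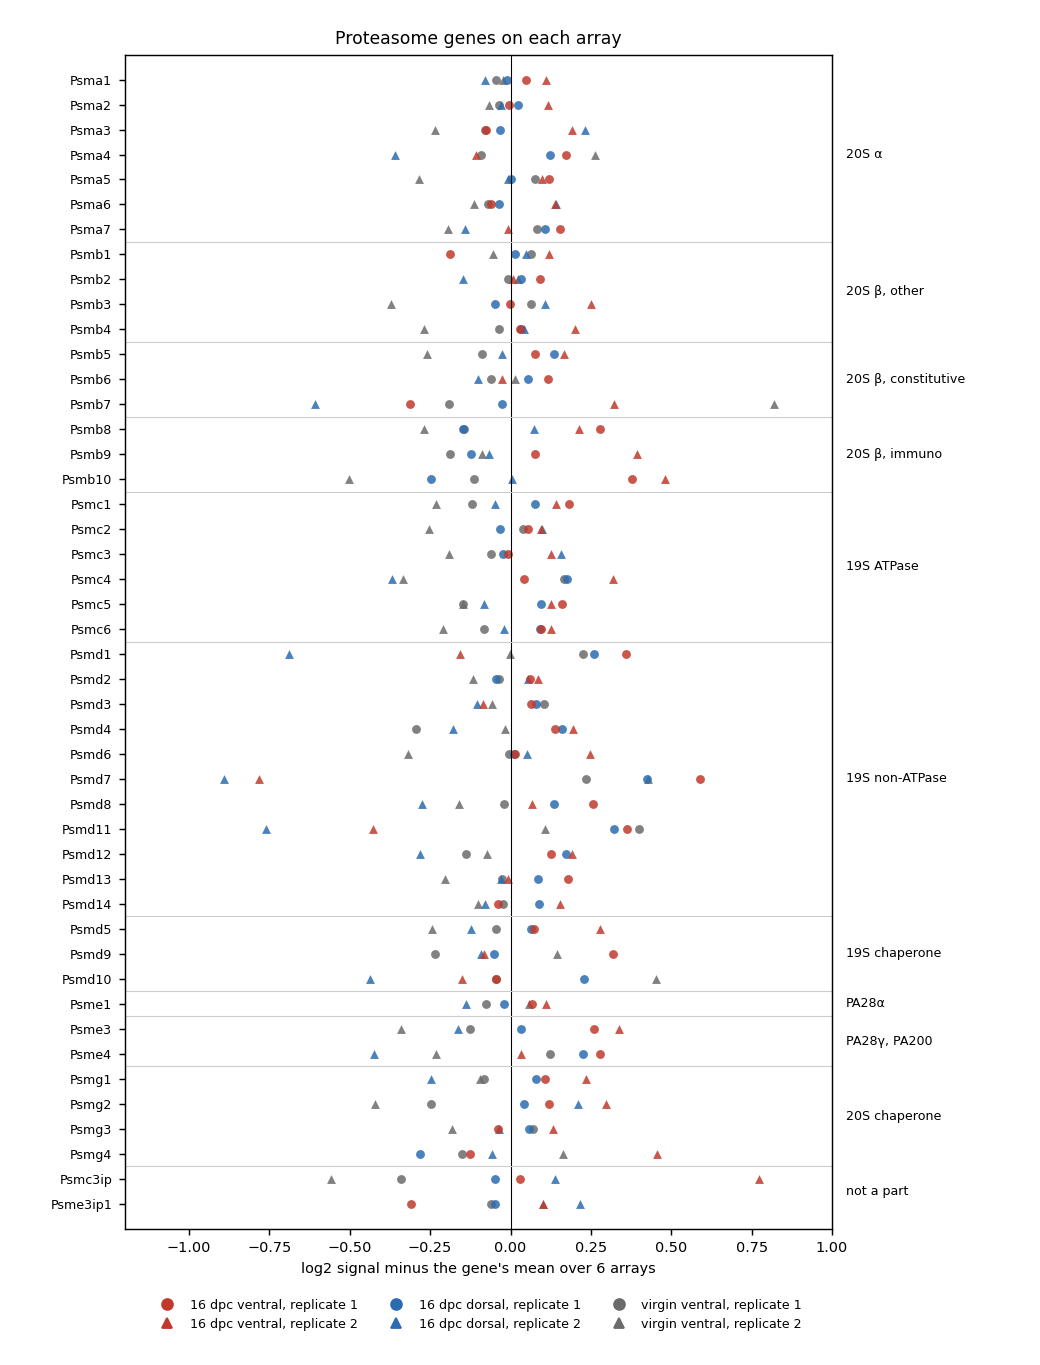
Log2 signal of each of the 46 proteasome genes on the 6 arrays, as the difference from that gene's mean over the arrays, with genes ordered by their place in the complex. Most points lie within 0.5 of the mean; for Psmd1, Psmd7 and Psmd11 the blue and red triangles (16 dpc arrays numbered 2) lie to the left.

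In 16 dpc ventral cells against virgin ventral cells, most proteasome genes had a higher mean, by small amounts. The mean was higher for 37 of the 46 genes, against 53.0% of all genes kept, with a median log2 fold change of 0.19 (0.02 for all genes). Within arrays numbered 1 and 2 this median was 0.11 and 0.26. Both 16 dpc ventral arrays lay above both virgin arrays for 27 of the 46 genes (23.8% of all genes), and for 0 genes did both lie below (19.8%). None of the 46 genes passed the limma test at an adjusted p of 0.05, which called 22 of all genes (0.200%), and the smallest adjusted p was 0.243 for Psmb10. At an unadjusted p under 0.05, 6 of the 46 genes were higher (6.18% of all genes) and 0 lower (5.47%). These were Psmb8, Psmb9, Psmb10, Psme3, Psmg2 and Psmc3ip. No proteasome gene differed by 2-fold (3.89% of all genes did). Of 10 markers of spinous and granular keratinocytes, which lie above the basal layer, 9 had a lower mean in 16 dpc ventral than in virgin cells (median -0.45), and their part in the proteasome values was not tested.

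In 16 dpc ventral cells against 16 dpc dorsal cells the picture had the same direction and was smaller. The mean was higher for 41 of the 46 genes, against 43.3% of all genes, with a median log2 fold change of 0.12 (-0.03 for all genes). Within arrays numbered 1 and 2 it was 0.05 and 0.19, and without 16 dpc dorsal array 2 the count with a higher mean was 30 of 46 and the median 0.04. The groups did not overlap for 13 genes, all higher in ventral cells (13.1% of all genes higher, 19.7% lower). The limma test called none of the 46 genes (9 of all genes, 0.0819%), with a smallest adjusted p of 0.809, and 1 gene, Psmb10, was higher at an unadjusted p under 0.05 (2.65% of all genes higher, 2.44% lower). No proteasome gene differed by 2-fold (2.48% of all genes). Both comparisons share the 16 dpc ventral arrays. The summed signal of the mammary and milk markers was also higher, at 8393 and 1171 in 16 dpc ventral cells against 477 and 719 in 16 dpc dorsal cells, with 869 and 1459 in virgin ventral cells, and its part was not tested.

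In 16 dpc dorsal cells against virgin ventral cells, which differ in both site and pregnancy, the median difference was near that of all genes. The mean was higher for 32 of the 46 genes (60.2% of all genes) and the median log2 fold change was 0.06, against 0.07 for all genes. The groups did not overlap for 12 genes, all higher in dorsal cells (24.3% of all genes higher, 13.6% lower). The limma test called 0 proteasome genes and 0 of all genes, and only Psmg2 was higher at an unadjusted p under 0.05 (3.88% of all genes higher, 3.39% lower). No proteasome gene differed by 2-fold (3.47% of all genes).

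Taking the 3 groups at once, both 16 dpc ventral arrays lay above all 4 other arrays for 13 of the 46 genes, against 7.59% of all genes, and below them for 0 (8.89%). The 13 genes came from most parts of the particle. They were the α subunits Psma1 and Psma5, the immunoproteasome subunits Psmb8, Psmb9 and Psmb10, the ATPases Psmc1, Psmc5 and Psmc6, the ubiquitin-handling scaffold Psmd2, the base chaperone Psmd5, the activators Psme1 and Psme3 and the core chaperone Psmg1. Some margins were small, as for Psmc6 (at least 5155 in 16 dpc ventral cells, at most 5143 elsewhere) and Psmd5 (1239 and 1233). Further probe sets present on all 6 arrays gave mixed signs in ventral over dorsal pregnant cells. The log2 fold changes were -0.08, -0.13 and -0.16 for Psma1, -0.03 and -0.08 for Psmc6 and -0.03 for Psme3. They were 0.08 for Psma5 and 0.10 for Psmb8. Relative to each gene's own mean, the median of the 46 genes was 0.08 and 0.13 on the 16 dpc ventral arrays, 0.04 and -0.07 on the 16 dpc dorsal arrays and -0.05 and -0.13 on the virgin ventral arrays, on the log2 scale. The same medians over all genes ran from -0.04 to 0.08.

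**Figure D2:**
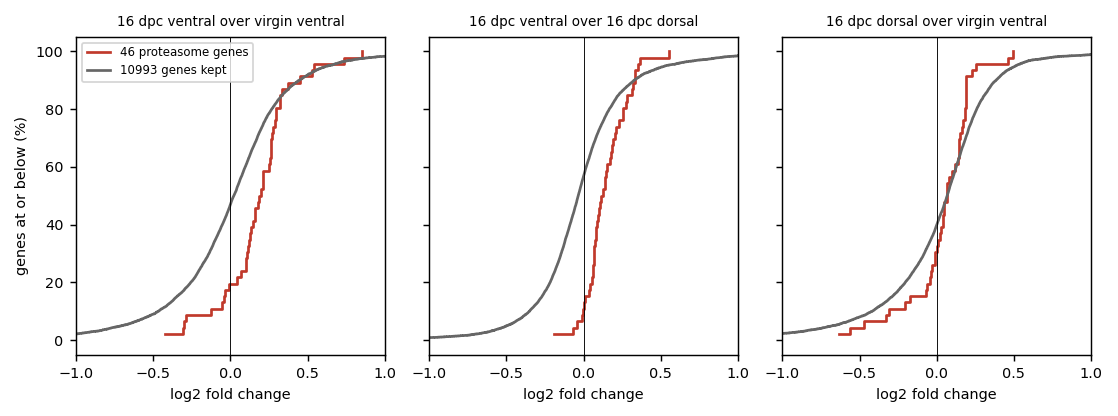
Cumulative share of genes (%) at or below each log2 fold change, for the 46 proteasome genes (red) and the 10993 genes kept (grey), in the 3 comparisons. The red curve lies to the right of the grey one through most of its length in both comparisons of 16 dpc ventral cells, with medians of 0.19 and 0.12, and runs close to it in the comparison of 16 dpc dorsal with virgin cells (0.06).

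The 3 immunoproteasome subunits stood highest in 16 dpc ventral cells. No other class of over 1 gene had both 16 dpc ventral arrays above all 4 others for every member. Among all genes kept the share was 7.59%. Psmb10, the immune counterpart of Psmb7 with trypsin-like activity (chr8:105935728-105938392), had signals of 1075 and 1153 in 16 dpc ventral cells, 696 and 829 in 16 dpc dorsal cells and 763 and 583 in virgin ventral cells. The lowest ventral pregnant array was above the highest of the other 4. Its log2 fold change was 0.74 ± 0.20 (SE) over virgin cells (limma, adjusted p = 0.243) and 0.55 ± 0.20 over dorsal cells (adjusted p = 0.809). Within arrays numbered 1 and 2 it was 0.49 and 0.98 over virgin cells, and 0.63 and 0.48 over dorsal cells.

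Psmb8, the immune counterpart of Psmb5 with chymotrypsin-like activity (chr17:34198195-34201454), had signals of 3911 and 3733 in 16 dpc ventral cells, 2906 and 3387 in 16 dpc dorsal cells and 2912 and 2672 in virgin ventral cells. Both 16 dpc ventral arrays were the highest of the 6, and 16 dpc dorsal array 1 was level with virgin array 1. On the log2 scale it was higher by 0.45 ± 0.15 than in virgin cells (limma, adjusted p = 0.309) and by 0.28 ± 0.15 than in dorsal cells. A second, dimmer probe set of Psmb8 also had a higher mean in 16 dpc ventral cells (0.50 over virgin cells), but its 16 dpc dorsal array 2 was the highest of the 6, at 399 against 248 and 342 on the 16 dpc ventral arrays.

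Psmb9, the immune counterpart of Psmb6 and a neighbour of Psmb8 in the MHC region (chr17:34182030-34187330), had signals of 3052 and 3800 in 16 dpc ventral cells, 2655 and 2761 in 16 dpc dorsal cells and 2538 and 2721 in virgin ventral cells. The dorsal and virgin arrays overlapped and the 2 ventral pregnant arrays lay above them. The log2 fold change was 0.37 ± 0.16 over virgin cells (limma, adjusted p = 0.415) and 0.33 ± 0.16 over dorsal cells.

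Between 16 dpc dorsal and virgin ventral cells the differences of these genes were 0.19 ± 0.20 for Psmb10, 0.17 ± 0.15 for Psmb8 and 0.04 ± 0.16 for Psmb9, with groups that overlapped for each. Over 17 alternative settings (16 for Psmb8), the 3 genes kept a higher mean in 16 dpc ventral cells in both comparisons. The log2 fold change over virgin cells ranged from 0.54 to 0.93 for Psmb10, from 0.39 to 0.52 for Psmb8 and from 0.22 to 0.53 for Psmb9, and the lowest adjusted p over these settings was 0.143, for Psmb10.

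**Figure D3:**
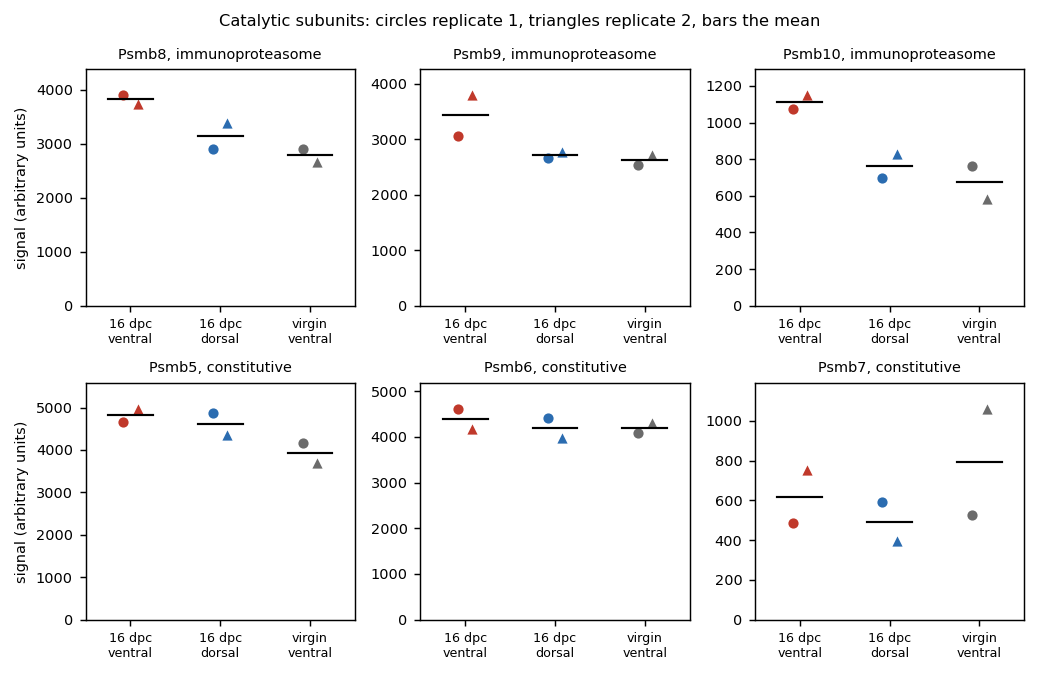
Signal (arbitrary units, linear, from 0) of the immunoproteasome subunits (top) and their constitutive counterparts (bottom) on each array, with circles for replicate 1, triangles for replicate 2 and bars for the mean of 2. In the top row both 16 dpc ventral points lie above the other 4, as for Psmb10 at 1075 and 1153 against at most 829; in the bottom row the groups overlap, except that both pregnant groups lie above virgin ventral cells for Psmb5.

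The constitutive counterparts did not share this order. Psmb5 (chr14:54614120-54617995) had signals of 4669 and 4974 in 16 dpc ventral cells, 4863 and 4348 in 16 dpc dorsal cells and 4168 and 3700 in virgin ventral cells. Both pregnant groups lay above virgin cells and overlapped each other. Over virgin cells it had a log2 fold change of 0.30 ± 0.15 in ventral cells (limma, adjusted p = 0.484) and of 0.23 ± 0.15 in dorsal cells.

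Psmb6 (chr11:70525324-70527858), which carries the caspase-like site, was level: 4617 and 4180 in 16 dpc ventral cells, 4422 and 3968 in 16 dpc dorsal cells and 4080 and 4300 in virgin ventral cells. All 3 groups overlapped, with log2 fold changes between 0.00 and 0.07.

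Psmb7 (chr2:38588046-38643952) varied most of these genes. It had signals of 484 and 752 in 16 dpc ventral cells, 591 and 395 in 16 dpc dorsal cells and 527 and 1062 in virgin ventral cells. All 3 groups overlapped. Over virgin cells it had a log2 fold change of -0.31 ± 0.36 in ventral and -0.63 ± 0.36 in dorsal cells. The ventral value was 0.20 without virgin array 2.

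Set within each array against its counterpart, the difference in log2 signal of Psmb9 and Psmb6 was 0.31 higher in 16 dpc ventral than in virgin ventral cells (0.09 and 0.52 within arrays numbered 1 and 2). For Psmb8 and Psmb5 it was 0.16 higher (0.26 and 0.06). For Psmb10 and Psmb7 it was 1.05 higher (0.62 and 1.48), a value that rests partly on the Psmb7 signal of virgin array 2. Over dorsal cells the shift was 0.26 for Psmb9 and Psmb6, with 0.14 and 0.39 within arrays numbered 1 and 2. It was 0.22 for Psmb8 and Psmb5 and 0.23 for Psmb10 and Psmb7, and both of these had opposite signs within arrays numbered 1 and 2 (0.49 and -0.05, and 0.91 and -0.45). Only the change of such a difference between arrays has a meaning, since signals of different probe sets are not on 1 scale.

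Among the other core subunits, 6 of 7 α ring genes had a higher mean in 16 dpc ventral than virgin cells (53.0% of all genes). Their log2 fold changes over the 7 genes ran from -0.05 to 0.21. For 5 of the 7 both 16 dpc ventral arrays lay above both virgin arrays (23.8% of all genes). Psma3, an α subunit, had the lowest difference of the ring between ventral and dorsal pregnant cells. Its signals were 9594 and 11536 in 16 dpc ventral cells and 9887 and 11881 in 16 dpc dorsal cells, against 9571 and 8596 in virgin ventral cells. The pregnant groups overlapped (log2 fold change -0.04 ± 0.17) and both were higher on array 2. Psmb1, a non-catalytic β subunit, had signals of 6769 and 8380 in 16 dpc ventral cells, 7785 and 7980 in 16 dpc dorsal cells and 8057 and 7433 in virgin ventral cells, and all 3 groups overlapped. Its log2 fold change between ventral and dorsal pregnant cells was -0.07 ± 0.16. Of the 4 non-catalytic β subunits, Psmb1 to Psmb4, 3 had a higher mean in 16 dpc ventral than in virgin cells, up to 0.28 for Psmb3.

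In the 19S particle, the ATPases that unfold substrates all lay on 1 side. All 6, Psmc1 to Psmc6, had a higher mean in 16 dpc ventral than in virgin ventral cells (53.0% of all genes). Their log2 fold changes ran from 0.18 to 0.34. For 5 of the 6 the groups did not overlap (23.8% of all genes higher). Psmc1 had the largest fold change of them, with signals of 2059 and 2004 in 16 dpc ventral cells, 1915 and 1757 in 16 dpc dorsal cells and 1673 and 1546 in virgin ventral cells. The 3 groups followed this order without overlap (0.34 ± 0.15 over virgin cells, limma, adjusted p = 0.428). The 11 non-ATPase subunits include those that bind and trim ubiquitin chains and those of the lid. Of the 11, 7 had a higher mean over virgin cells (53.0% of all genes) and 11 over dorsal cells (43.3%). Only Psmd2 had both 16 dpc ventral arrays above all others (7.59% of all genes).

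The 31 constitutive core and 19S subunits taken by themselves had a higher mean for 24 genes over virgin cells (53.0% of all genes). Over dorsal cells the mean was higher for 27 (43.3%), and the medians were 0.18 and 0.09. Without the 3 immunoproteasome subunits the 43 other genes had medians of 0.18, 0.11 and 0.06 in the 3 comparisons. The medians of the 3 immunoproteasome genes were 0.45, 0.33 and 0.17. The difference between these classes was not tested.

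Among proteasome parts, the largest log2 fold changes of 16 dpc ventral over virgin cells after Psmb10 were those of an assembly factor and an activator. Psmg2, a chaperone that pairs with Psmg1 to build the α ring, had signals of 2605 and 2950 in 16 dpc ventral cells, 2471 and 2774 in 16 dpc dorsal cells and 2022 and 1790 in virgin ventral cells. Both pregnant groups lay above the virgin cells and overlapped each other. Over virgin cells it had a log2 fold change of 0.54 ± 0.16 in ventral cells (limma, adjusted p = 0.249) and of 0.46 ± 0.16 in dorsal cells (adjusted p = 0.613). It differed between ventral and dorsal pregnant cells by 0.08 ± 0.16. A dimmer probe set of Psmg2 gave 0.26 and 0.18 over virgin cells. Psmg1, Psmg3 and Psmg4 had log2 fold changes of 0.26, 0.10 and 0.16 over virgin cells.

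Psme3, the nuclear PA28γ cap that opens the core without ATP, had signals of 538 and 567 in 16 dpc ventral cells, 459 and 401 in 16 dpc dorsal cells and 412 and 355 in virgin ventral cells. Both 16 dpc ventral arrays were the highest of the 6. Its log2 fold change was 0.53 ± 0.20 over virgin cells (limma, adjusted p = 0.379) and 0.36 ± 0.20 over dorsal cells. A dimmer probe set of Psme3, also present on all 6 arrays, gave 0.02 and -0.03. Psme1, the α chain of the interferon-inducible PA28 cap, differed by 0.10 and 0.17, and Psme4, which encodes PA200, by 0.21 and 0.25.

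Of the 3 chaperones of the 19S base, Psmd5 had a higher mean in 16 dpc ventral cells by 0.32 over virgin and 0.20 over dorsal cells. Psmd10, also known as gankyrin, had signals of 540 and 501 in 16 dpc ventral cells, 652 and 411 in 16 dpc dorsal cells and 539 and 761 in virgin ventral cells. It was among the genes with a lower mean over virgin cells (-0.30 ± 0.27), and the groups overlapped.

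The 2 genes that the symbol rule caught but that are no proteasome parts lay on opposite sides of 0 in both comparisons of 16 dpc ventral cells. Psmc3ip, a recombination factor of meiosis also called Hop2, had signals of 471 and 788 in 16 dpc ventral cells, 446 and 508 in 16 dpc dorsal cells and 364 and 313 in virgin ventral cells. Virgin cells lay below both pregnant groups, which overlapped. The log2 fold change over virgin cells was the largest of the 46 genes, 0.85 ± 0.27 in ventral cells (limma, adjusted p = 0.276), and was 0.49 ± 0.27 in dorsal cells. The ventral value was 0.37 within arrays numbered 1 and 1.33 within those numbered 2. A second probe set gave 0.52 for ventral and -0.07 for dorsal cells. Psme3ip1, which binds PA28γ, had signals of 1124 and 1494 in 16 dpc ventral cells, 1348 and 1620 in 16 dpc dorsal cells and 1335 and 1496 in virgin ventral cells, with overlap of all groups and a log2 fold change of -0.19 ± 0.19 between ventral and dorsal pregnant cells.

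Psmd7 and Psmd11 had a lower mean in both pregnant groups than in virgin cells and differed widely between replicates. Psmd7 had signals of 1910 and 739 in 16 dpc ventral cells, 1707 and 685 in 16 dpc dorsal cells and 1494 and 1708 in virgin ventral cells. The pair of arrays numbered 2 was low in both pregnant groups, and the others were similar. Its log2 fold change in ventral over virgin cells was -0.43 ± 0.48, or 0.35 within arrays numbered 1 and -1.21 within those numbered 2. In dorsal over virgin cells it was -0.56 ± 0.48, or 0.19 and -1.32.

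Psmd11, a subunit of the 19S lid, had signals of 6911 and 3999 in 16 dpc ventral cells, 6723 and 3174 in 16 dpc dorsal cells and 7102 and 5795 in virgin ventral cells, so the same pair of arrays was low. The log2 fold change in dorsal over virgin cells was -0.47 ± 0.35, or -0.08 and -0.87 within arrays numbered 1 and 2. Of 3 further Psmd11 probe sets present on all 6 arrays, one showed the same pair low, with 2147 and 1020 in 16 dpc ventral cells, 1871 and 757 in 16 dpc dorsal cells and 1985 and 1818 in virgin ventral cells. Another also had the pair lowest, with 1897 and 1072 in 16 dpc ventral cells, 1568 and 1258 in 16 dpc dorsal cells and 1777 and 1910 in virgin ventral cells. The brightest of the 3 did not, with 3484 and 3499 in 16 dpc ventral cells, 4182 and 2978 in 16 dpc dorsal cells and 4320 and 3345 in virgin ventral cells. Psmd1, the large scaffold of the 19S base, was the only further gene lower by over 0.5 on array 2 in both pregnant groups, with 4292 and 2996 in ventral and 4007 and 2076 in dorsal cells, against 3912 and 3343 in virgin cells.

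Over the 46 genes, the difference between array 2 and array 1 correlated between 16 dpc ventral and 16 dpc dorsal cells (r = 0.69), but not between either of these and virgin cells (0.04 and -0.20). These values describe genes, whose number is not a number of replicates. The 16 dpc arrays numbered 2 are those of the high 3′ to 5′ ratio, and the part of RNA quality in these genes was not tested. Without both of these arrays, the count with a higher mean over virgin cells was 41 of 46 for ventral cells, with a median of 0.18, and the count for ventral over dorsal cells was 31 of 46, with a median of 0.05.

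**Figure D4:**
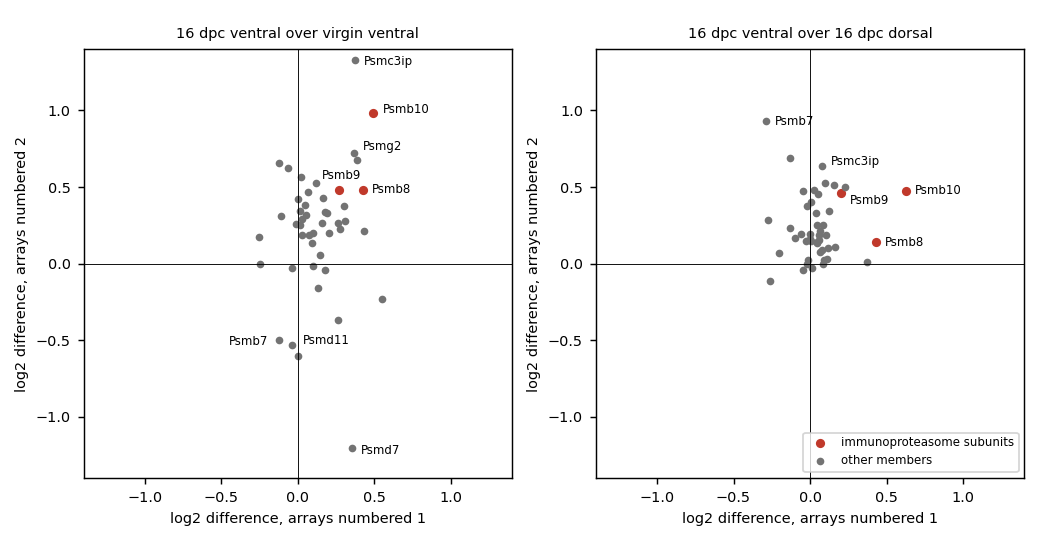
Log2 difference of each of the 46 genes within arrays numbered 1 (horizontal axis) and within arrays numbered 2 (vertical axis), for 16 dpc ventral over virgin ventral cells (left) and over 16 dpc dorsal cells (right), with immunoproteasome subunits in red. The 3 red points lie above 0 on both axes in both panels, and Psmd7 on the left has 0.35 within arrays numbered 1 and -1.21 within those numbered 2.

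Further probe sets gave a check of the choice of 1 per gene. Another 51 probe sets named 26 of the genes, and 31 of these, for 20 genes, were called present on all 6 arrays. Of the 31, 24 had the same sign as the chosen probe set in 16 dpc ventral over virgin cells, 19 in ventral over dorsal cells and 21 in dorsal over virgin cells. Their medians were 0.09, 0.07 and 0.02, against 0.19, 0.12 and 0.06 for the chosen probe sets. Leaving out the kinds of probe set that can bind several transcripts left 38 of the genes, and 29, 31 and 22 of these had a higher mean in the 3 comparisons.

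Genes that regulate the proteasome or deliver substrates to it differed by little. Of 24 such genes kept, 16 had a higher mean in 16 dpc ventral than in virgin ventral cells (53.0% of all genes), 15 in ventral than in dorsal pregnant cells (43.3%), and 14 in dorsal pregnant than in virgin cells (60.2%). Their medians were 0.05, 0.03 and 0.04, against 0.02, -0.03 and 0.07 for all genes. In the limma test 0 passed the adjusted threshold, and over virgin cells 3 were higher and 1 lower at an unadjusted p under 0.05 (6.18% and 5.47% of all genes). The smallest p over virgin cells among those higher belonged to Usp14, the deubiquitinase of the 19S particle, with 1771 and 1545 in 16 dpc ventral cells, 1556 and 1570 in 16 dpc dorsal cells and 1320 and 1169 in virgin ventral cells (0.41, limma, adjusted p = 0.38). Rad23b, a shuttle for ubiquitinated proteins, and Uchl5, the other deubiquitinase of the particle, had 0.35 each. Pomp, the maturation factor of the core, had 0.17. Of the 2 activators of proteasome genes named above, Nfe2l1 had -0.16 over virgin and -0.13 over dorsal cells. Nfe2l2 had 0.10 over virgin and 0.27 over dorsal cells. Maff, a small Maf partner of that family of factors, was lower, with 277 and 267 in 16 dpc ventral cells, 357 and 269 in 16 dpc dorsal cells and 518 and 442 in virgin ventral cells (-0.82, limma, adjusted p = 0.248).

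MHC class I antigen processing is the pathway that the immunoproteasome feeds. Of its 12 listed genes, 9 had a higher mean in 16 dpc ventral than in virgin cells (53.0% of all genes). The mean was higher for 8 over dorsal cells (43.3%) and for 11 in dorsal over virgin cells (60.2%). The medians were 0.22, 0.12 and 0.12, and 0 genes passed the limma test. Tap2, a subunit of the peptide transporter encoded beside Psmb8 and Psmb9 on chromosome 17, had 2579 and 2161 in 16 dpc ventral cells, 1763 and 2098 in 16 dpc dorsal cells and 1526 and 1230 in virgin ventral cells (0.79 over virgin cells, limma, adjusted p = 0.184). Pdia3, a chaperone of peptide loading and of glycoprotein folding in general, had 6444 and 5490 in 16 dpc ventral cells, 4691 and 5309 in 16 dpc dorsal cells and 3319 and 3204 in virgin ventral cells (0.87, limma, adjusted p = 0.0936). Tap1, the partner of Tap2, had 0.16, and B2m, the light chain of class I, 0.05. The 3 genes with a lower mean over virgin cells were H2-K1 (-0.03), H2-D1 (-0.06) and Nlrc5 (-0.21). Nlrc5 also had -0.23 over dorsal cells.

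Over virgin cells, interferon response genes lay mostly in the other direction. Of 13 genes kept of the 24 listed, 3 had a higher mean (53.0% of all genes) and 10 a lower mean in 16 dpc ventral than in virgin ventral cells (median -0.25). In ventral over dorsal pregnant cells 7 were higher (43.3% of all genes, median 0.01), and in dorsal pregnant over virgin cells 3 (60.2%, median -0.47). None passed the test. Ifit1, the lowest over virgin cells (-1.31), was absent on both 16 dpc ventral arrays and was kept only through its present calls in virgin cells. Irf8, Rsad2 and Gbp3 also had absent or marginal calls on some arrays. Iigp1, a GTPase induced by interferon-γ, had 177 and 257 in 16 dpc ventral cells, 284 and 285 in 16 dpc dorsal cells and 552 and 399 in virgin ventral cells (-1.14 over virgin cells, limma, adjusted p = 0.203). Irf1, the interferon regulatory factor known to act on Psmb9, had 0.18 over virgin cells and 0.17 over dorsal cells, and its 16 dpc ventral and dorsal arrays overlapped.

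Immune cells carry the immunoproteasome, and some of their markers were detected in the sorted samples. In a bulk array, fewer cells of a type and less RNA per cell cannot be told apart. Of 14 markers of Langerhans cells and of other cells that present antigen, 12 were kept and 10 had a higher mean in 16 dpc ventral than in virgin ventral cells (median 0.67), 8 in ventral than in dorsal pregnant cells (median 0.05), and 10 in dorsal pregnant than in virgin cells (median 0.65). The summed signal of all 14 was 9723 to 13049 in 16 dpc ventral, 11421 to 12846 in 16 dpc dorsal and 7951 to 8579 in virgin ventral cells. This sum includes Aif1, which was absent on all arrays. Csf1r, the receptor of macrophage and Langerhans cell growth factors, passed the test in ventral over virgin cells (1.76, limma, adjusted p = 0.0406).

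Of 6 T cell markers kept of 14, 6 had a higher mean in 16 dpc ventral than in virgin ventral cells (median 0.74), 1 in ventral than in dorsal pregnant cells (median -0.33), and 6 in dorsal pregnant than in virgin cells (median 1.08). Cd3e, Cd3d, Cd247 and Il2rb were absent on all arrays. The summed signal covers all 12 listed genes with a probe set, absent ones included. It was 4532 to 5293 in 16 dpc ventral, 2841 to 3978 in 16 dpc dorsal and 1168 to 1259 in virgin ventral cells. Thy1, a surface antigen of T cells, made most of this in 16 dpc ventral cells, with 3086 and 4216, against 1347 and 2235 in 16 dpc dorsal cells and 402 and 457 in virgin ventral cells. It passed the test in ventral over virgin cells (3.07, limma, adjusted p = 0.0104). Ptprc, the pan-leukocyte antigen, had 205 and 156 in 16 dpc ventral cells, 202 and 238 in 16 dpc dorsal cells and 124 and 91.2 in virgin ventral cells. In 16 dpc ventral over virgin cells, both immune lists and the immunoproteasome genes had medians above 0. In 16 dpc dorsal over virgin cells, the medians were 0.65 and 1.08 for the immune lists and 0.17 for the immunoproteasome genes. The part of immune cells in the differences from virgin cells was not tested. Over dorsal cells, the antigen-presenting markers had log2 fold changes from -0.42 to 0.78 (median 0.05). The highest was Mfge8, a milk fat globule gene that is not specific to immune cells. The T cell markers ran from -0.45 to 1.06 (median -0.33), with the highest for Thy1. The part of immune cells in the difference from dorsal cells was not tested either.

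Markers of other epithelial cells also differed between the groups. Of 10 mammary and milk markers, 6 were kept. Of these, 3 had a higher mean in 16 dpc ventral than in virgin ventral cells (median -0.27), 5 in ventral than in dorsal pregnant cells (median 2.23), and 2 in dorsal pregnant than in virgin cells (median -2.32). Csn2, the milk protein β-casein, had 6185 and 699 in 16 dpc ventral cells, 204 and 348 in 16 dpc dorsal cells and 172 and 2.29 in virgin ventral cells. Krt18, a keratin of simple epithelia, had 94.3 and 47.6 in 16 dpc ventral cells, 17.8 and 24.2 in 16 dpc dorsal cells and 161 and 413 in virgin ventral cells, and Lalba was absent on all arrays. The summed mammary signal, over all 9 listed genes with a probe set, was largest on 16 dpc ventral array 1. Without that array, 38 of the 46 proteasome genes had a higher mean over virgin cells and 39 over dorsal cells, with medians of 0.21 and 0.12. The ventral array that remains still had a summed mammary signal of 1171, against 477 and 719 in 16 dpc dorsal and 869 and 1459 in virgin ventral cells. The part of mammary cells in the proteasome values was not tested. Of the 10 spinous and granular markers, 2 had a higher mean in ventral than in dorsal pregnant cells (median -0.06) and 1 in dorsal pregnant than in virgin cells (median -0.44). Their summed signal was 113727 to 123513 in 16 dpc ventral, 117130 to 137053 in 16 dpc dorsal and 137790 to 139698 in virgin ventral cells. Of 6 hair follicle bulge markers, all kept, 1 had a higher mean in 16 dpc ventral than in virgin cells (median -0.24). In ventral over dorsal pregnant cells 4 were higher (median 0.64), and in dorsal pregnant over virgin cells 1 (median -1.29). The part of bulge cells in the proteasome values was not tested.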

How the data were processed

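The authors hybridised RNA from the sorted basal cells to an Affymetrix mouse array of the 3′ type with 45101 probe sets. The deposited files hold a signal intensity and a detection call per probe set. The notes of the submitters name Affymetrix Expression Console, version 1, while no build or aligner is stated in the sources used here. Because each array was scaled to a common mean, a change in total RNA per cell cannot be seen, and partly degraded RNA loses signal far from the 3′ end. The series' value table repeats these signals to within a relative difference of 5.00e-06, so it entered no test.

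Groups, the day of gestation and replicate numbers came from the labels; the column headers name a slightly later day for the pregnant groups. Symbols came from the platform annotation (34945 probe sets with 1 gene, 932 with several, 9224 with none). Each gene was represented by its brightest probe set (mean log2 signal over the 6 arrays). Signals under 1 were set to 1. A gene was kept if any group had a present call on each of its arrays. The lowest signal called present was 6.34 to 11.3 per array, and 2 arrays a group limit the precision.

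Log2 signals were fitted with limma 3.58.1 (lmFit, eBayes with a trend) in R 4.3.3, with the 3 groups in a single model (6 arrays, residual degrees of freedom 3, prior 5.79). Tests were two-sided, with Benjamini-Hochberg adjustment over 10993 genes and a threshold of 0.05. The study's methods name no test for the arrays. On simulated data for 16 dpc ventral over virgin ventral cells with 10993 genes, 19, 41, 44 and 50 of 50 changed genes were recovered at log2 sizes of 1, 2, 3 and 4, and 5 unchanged genes were called. Full values were given for the catalytic subunits and for the 3 genes of smallest p in each direction of a comparison, with further genes where a class or a replicate pattern is described. Alternatives covered the probe set per gene, the filter, the normalization, the floor, the variance prior, the arrays in the fit, the replicate number as a block and each array left out. The members, gene lists and tests were chosen with earlier results of these data known.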

Additional observations from a re-analysis of the deposited data

How the results depend on the processing

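Under every alternative run, including each array left out, 0 of the proteasome genes passed the adjusted threshold in any comparison. The number with a higher mean in 16 dpc ventral over virgin ventral cells stayed between 33 and 41 of 46 (29 of 38 without probe sets ending in _s_at, _x_at or _a_at), and in ventral over dorsal cells between 30 and 43. The count of all genes called depended far more on the setting. In 16 dpc ventral over virgin ventral cells it was 22, against 5 with the mean of a gene's probe sets, 11 without _s_at, _x_at and _a_at probe sets, 12 after quantile normalization, 0 without a variance trend, 46 with only the 2 groups in the fit, and 115 without both 16 dpc arrays numbered 2. In ventral over dorsal cells it was 9, against 0 with the mean of probe sets, 1 without the trend, 0 with only the 2 groups and 24 without those arrays. In dorsal over virgin cells it was 0, against 5 for genes present on all 6 arrays, 1 without the _s_at, _x_at and _a_at sets, 7 with a pseudocount of 16, 12 with only the 2 groups and 62 without those arrays. With 1 array left out it ran from 1 to 59, from 0 to 7 and from 0 to 33 in the 3 comparisons; a group of 1 array is then assumed to vary like the others. The cause of these shifts was not tested.

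Deviations of same-numbered arrays correlated over all genes between ventral and dorsal pregnant cells (r = 0.45), but not with virgin cells (0.01 and 0.03). The labels do not say whether same-numbered pregnant arrays share an animal, and this was not tested. The main fit does not pair them. With the replicate block, 86 genes were called in ventral over virgin cells, 16 in ventral over dorsal cells and 11 in dorsal over virgin cells, and 0 proteasome genes in each.

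The median of the proteasome genes in dorsal over virgin cells, 0.065, was 0.054 with the mean of probe sets, 0.017 without the _s_at, _x_at and _a_at sets, 0.023 after quantile normalization, 0.040 with arrays centred on the median, 0.10 without both 16 dpc arrays numbered 2, and 0.022 to 0.13 with 1 array left out. Its other medians ran from 0.12 to 0.26 over virgin and from 0.04 to 0.20 over dorsal cells for 16 dpc ventral cells with 1 array left out.

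Signs of small log2 fold changes turned in places. In ventral over virgin cells, Psmd7 was 0.14 with the mean of probe sets and 0.26 without both 16 dpc arrays numbered 2. With 1 array left out it ran from -1.11 to 0.26, Psmb6 from -0.003 to 0.14 and Psmb7 from -0.82 to 0.20. In ventral over dorsal cells, Psmb1 was 0.065 with the mean of probe sets, and without both 16 dpc arrays numbered 2 Psmb5 was -0.059 and Psmb7 -0.29. With 1 array left out, Psma3 ran from -0.18 to 0.090, Psmb1 from -0.22 to 0.089, Psmb5 from -0.013 to 0.15, Psmb6 from -0.0096 to 0.15 and Psme3ip1 from -0.39 to 0.016. In dorsal over virgin cells, Psmd7 and Psmd11 were 0.16 each with the mean of probe sets and 0.096 and 0.068 without both 16 dpc arrays numbered 2, Psmc3ip was -0.066 without the _s_at, _x_at and _a_at sets, Psmb6 was -0.052 after quantile normalization and -0.025 with centred arrays, and Psmb9 was -0.017 after quantile normalization. With 1 array left out, Psmb6 ran from -0.078 to 0.078, Psmb9 from -0.0069 to 0.093, Psmb10 from -0.0067 to 0.38, Psmd7 from -1.22 to 0.096 and Psmd11 from -1.02 to 0.068.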

Other observations

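Genes of the heat shock response, which like the proteasome handles damaged proteins, showed no common direction. Of 10 genes, 7 had a higher mean in 16 dpc ventral than in virgin ventral cells, 3 in ventral than in dorsal pregnant cells and 8 in dorsal pregnant than in virgin cells, and 0 passed the limma test. Hspd1, the mitochondrial chaperonin, had 6726 and 6252 in 16 dpc ventral cells, 5687 and 6515 in 16 dpc dorsal cells and 4429 and 4637 in virgin ventral cells (0.52 in ventral over virgin cells, limma, adjusted p = 0.248). Hspa1a, an inducible Hsp70, had 3424 and 3805 in 16 dpc ventral cells, 3932 and 5061 in 16 dpc dorsal cells and 5085 and 5520 in virgin ventral cells (-0.55, adjusted p = 0.259). Hspb1, a small heat shock protein, had a log2 fold change of -0.40.

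Targets of Nfe2l2 in the oxidative stress response had a higher mean in ventral than in dorsal pregnant cells for 6 of 8 genes, and in ventral pregnant than in virgin cells for 5 of 8. Gsta4, a glutathione transferase, had 227 and 286 in 16 dpc ventral cells, 83.6 and 151 in 16 dpc dorsal cells and 137 and 176 in virgin ventral cells, with both 16 dpc ventral arrays above the other 4. Its log2 fold change was 1.18 over dorsal cells (limma, adjusted p = 0.647) and 0.71 over virgin cells. Of the 6 genes of ubiquitin and its activating enzymes, only Uba6 had a probe set of its own, with a log2 fold change of 0.12 over virgin and -0.24 over dorsal cells.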
